A study of Homo sapiens with 4 samples.

Results

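The 34 genes described here encode the enzymes that make cholesterol and long-chain fatty acids, the proteins that sense sterols, and a few genes switched on by the liver X receptors (LXR). They were chosen by name from these pathways, with no threshold on their values. Each of the 34 had a probe, 42 probes in all, among 25121 genes with a symbol and 58196 probes measured. They fell into 5 groups by role: 7 genes of the mevalonate pathway, 11 that act between squalene and cholesterol, 6 of sterol sensing and transport, 7 of fatty acid synthesis and 3 LXR targets.

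ESS2 (also called DGCR14) is a nuclear protein found with the spliceosome, and the study examined it as a transcriptional coregulator in prostate cancer. PC3 and DU145 are established human prostate cancer lines that grow without androgen, derived from metastases to bone and brain. Total RNA was measured on 4 one-colour (Cy3) Agilent arrays, 1 for each condition: PC3-shC and DU145-shC cells, whose control short hairpin RNA (shRNA) the labels give as one against luciferase, and PC3-shESS2 and DU145-shESS2 cells, which carried an ESS2 shRNA. All cells grew in RPMI1640 with 10% fetal bovine serum and antibiotics. For PC3 the study's methods name the control only as a negative one and describe plasmid transfection and puromycin selection of stable cells, whereas the labels call the cells of both lines transduced. The sources used here name no second hairpin and do not say whether clones or mixed populations were taken.

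Cells build cholesterol from acetyl-CoA through mevalonate, farnesyl diphosphate, squalene and lanosterol. When sterols in the endoplasmic reticulum run low, SCAP escorts the precursors of the SREBP transcription factors to the Golgi, where they are cut and released to the nucleus, and the INSIG proteins hold SCAP back when sterols are plentiful. SREBP-2 acts mainly on genes of the sterol pathway and SREBP-1 mainly on those of fatty acid synthesis, whereas LXR, which is activated by oxysterols, drives genes of cholesterol export.

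The 75th percentile of the spot signal lay between 212 and 290 on the 4 arrays, and each array was scaled to its own. The signals below are the scanner's background-subtracted intensities before scaling, and the log2 ratios, shESS2 over shC within a line, are after it. All 42 probes were well above background on all 4 arrays and none was saturated. ESS2, the targeted gene, had signals of 133 and 53.6 in PC3-shC and PC3-shESS2 cells (log2 ratio -1.45) and of 85.7 and 17.3 in the DU145 pair (-2.35). All 5 epithelial markers were well above background on every array, but KLK3, which marks luminal prostate cells, was so on none. Of 8 markers of other cell types, 3 were well above background on all 4 arrays and 2 on none. Their summed signal over the 75th percentile was 2.70 in PC3-shC and 1.13 in PC3-shESS2 cells, and 0.77 and 0.80 in the DU145 pair. The difference between the PC3 sums lay mostly in the endothelial gene PECAM1 (signals of 338 and 16.4). The epithelial gene EPCAM had signals of 2120 and 357 in the DU145 pair. The part of these differences in the results below was not tested, and in RNA from whole cultures fewer cells of a type and less RNA per cell cannot be told apart. With 1 array per condition no difference within a line was tested, and the number of arrays limits the precision. Probes printed 10 times gave a median SD of the log2 ratio between spots of 0.047 in PC3 and 0.053 in DU145, which covers neither the hybridization nor the cells.

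In DU145 cells the sterol pathway was higher nearly throughout with the ESS2 shRNA. Of the 34 genes 23 were higher in DU145-shESS2 than in DU145-shC cells by more than 1.5-fold, beside 7.18% of all 16842 genes compared, and 0 were lower by as much, beside 8.63%. By more than 2-fold 11 were higher, beside 2.36% of all genes, and 0 lower, beside 2.47%. The median log2 ratio was 0.70 for the 34 genes and -0.02 for all genes.

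In PC3 cells the difference was narrower. Of the 34 genes 7 were higher in PC3-shESS2 than in PC3-shC cells by more than 1.5-fold, beside 10.1% of all 16764 genes compared, and 0 were lower by as much, beside 9.98%. By more than 2-fold 3 were higher (INSIG1, INSIG2 and STARD4), beside 3.88%, and 0 lower, beside 3.87%. The median of the 34 genes was 0.09 and that of all genes -0.06. When each array was scaled to its median instead, the median of the 34 genes became -0.01 and that of all genes -0.16.

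With the brightest probe of each gene, the largest ratio of the 34 genes in each line was that of a gene of sterol sensing and transport, STARD4 in PC3 and INSIG1 in DU145. In DU145 1 dim probe of HSD17B7 gave a larger log2 ratio, 1.80, than INSIG1 (1.58). INSIG1, the retention protein whose own gene is a target of the SREBPs, had signals of 256 in PC3-shC, 857 in PC3-shESS2, 1180 in DU145-shC and 3640 in DU145-shESS2 cells. It was 3.04-fold higher with the ESS2 shRNA in PC3 and 3.0-fold in DU145, and the log2 ratios differed by -0.02 between the lines (DU145 minus PC3). STARD4, a small protein that carries cholesterol between membranes, had signals of 135, 657, 82.2 and 207 in the same order. It was 4.41-fold higher in PC3 and 2.45-fold in DU145. These log2 ratios exceeded those of 98.7% (INSIG1) and 99.4% (STARD4) of all genes compared in PC3, and of 99.25% and 98.7% in DU145.

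INSIG2, the second INSIG, stood apart from INSIG1 in DU145. Its brighter probe gave 673 and 2220 in PC3-shC and PC3-shESS2 cells and 248 and 269 in the DU145 pair. It was thus 2.99-fold higher in PC3 and 1.05-fold in DU145. The other probe gave 350 and 882 in PC3 (log2 ratio 1.19) and 248 and 249 in DU145 (-0.03), so both probes placed the difference in PC3.

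The transcription factors and their escort differed less. SREBF2, which encodes SREBP-2, had signals of 818 and 1210 in the PC3 pair and 1100 and 1750 in the DU145 pair (log2 ratios 0.42 and 0.63). SREBF1, which encodes SREBP-1, had 11000 and 12600 in PC3 and 6120 and 7860 in DU145 (0.05 and 0.32), and its second probe gave 0.09 and 0.10. The small PC3 value of SREBF1 turned negative with median scaling. SCAP had 2340 and 2160 in PC3 and 1060 on both DU145 arrays (-0.26 and -0.04). Thus SREBF2 was past 1.5-fold in DU145, and neither SREBF1 nor SCAP was in either line. The median of the 6 sensing and transport genes was 1.0 in PC3 and 0.48 in DU145, and the DU145 median was 0.21 with each probe on its own.

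**Figure D1:**
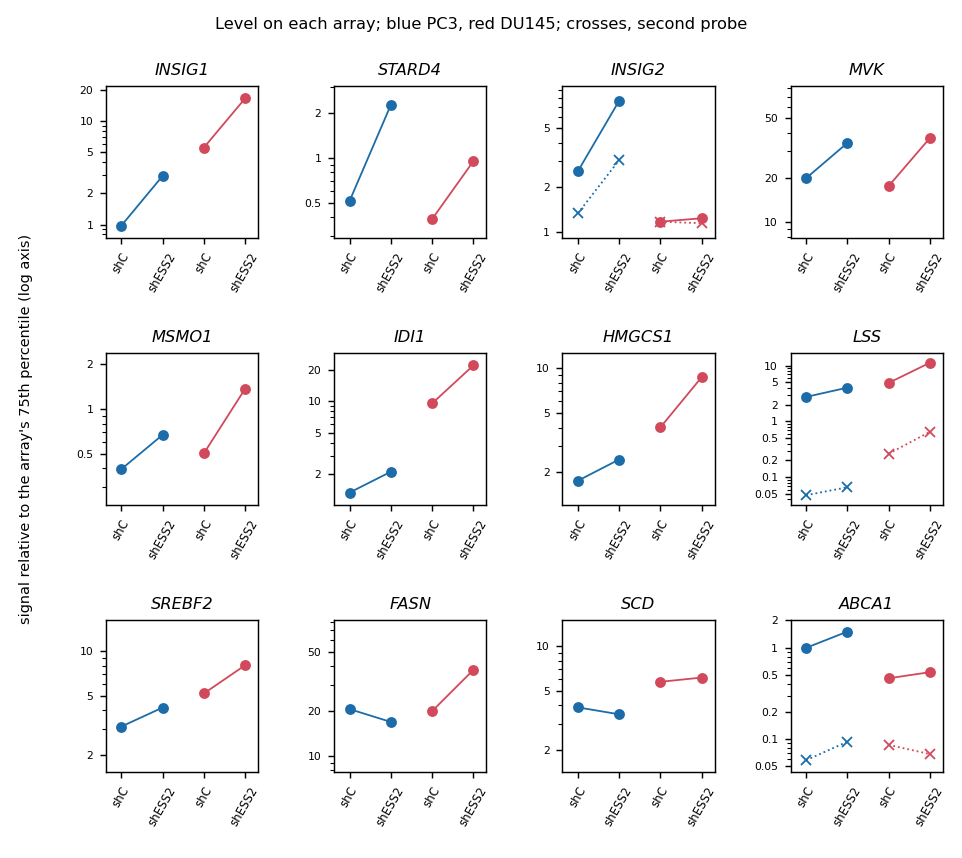
Signal relative to the 75th percentile of its array (log axis, 1 point per array) for 12 of the genes, with PC3 in blue and DU145 in red and lines joining shC to shESS2; crosses are the second probe. INSIG1 and STARD4 were higher with the ESS2 shRNA in both lines, INSIG2 in PC3, and FASN in DU145 alone.

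Of the mevalonate pathway, 6 of 7 genes were higher by more than 1.5-fold in DU145, beside 7.18% of all genes, and 2 of 7 in PC3, beside 10.1%, with medians of 1.07 and 0.47. MVK, the mevalonate kinase, had signals of 5210 and 9910 in the PC3 pair and 3720 and 8040 in the DU145 pair, 1.73-fold and 2.10-fold higher with the ESS2 shRNA. IDI1, which isomerizes isopentenyl diphosphate, had 349, 610, 2020 and 4820, or 1.59-fold and 2.32-fold. These 2 were the only genes of the pathway past 1.5-fold in both lines.

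HMGCS1, the cytosolic HMG-CoA synthase, had signals of 462 and 708 in PC3 and 850 and 1900 in DU145 (log2 ratios 0.47 and 1.12). MVD, which decarboxylates mevalonate diphosphate, had 569 and 880, then 487 and 1250 (0.49 and 1.32). ACAT2, the thiolase of the first step, had 3380 and 4830, then 3870 and 7040 (0.37 and 0.82). All 3 were higher with the ESS2 shRNA in both lines and past 1.5-fold in DU145 alone. FDPS, which makes farnesyl diphosphate, was lower in PC3 (11500 and 10700, -0.25) and higher in DU145 (14600 and 24300, 0.69). PMVK, the phosphomevalonate kinase between MVK and MVD, departed from its neighbours: it had 4570 and 3870 in PC3 and 2440 and 2290 in DU145 (-0.38 and -0.13). It was the only gene of the pathway that was not higher in DU145-shESS2 cells.

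From squalene to cholesterol, all 11 genes were higher by more than 1.5-fold in DU145, beside 7.18% of all genes, and 5 of them by more than 2-fold, beside 2.36%. In PC3 1 of 11 was past 1.5-fold, a share no larger than the 10.1% of all genes. The medians were 0.99 and 0.13, and the PC3 median was 0.02 to 0.26 under the other settings. MSMO1, the C4 sterol methyl oxidase, had signals of 104 and 195 in the PC3 pair and 107 and 299 in the DU145 pair, 1.70-fold and 2.72-fold higher. LSS, which cyclizes squalene epoxide to lanosterol, had 724 and 1170, then 1040 and 2460, or 1.47-fold and 2.30-fold, and its second probe gave log2 ratios of 0.48 and 1.30. DHCR7, a reductase of the last steps, had 8490 and 11200, then 8540 and 18900, or 1.20-fold and 2.15-fold. These 3 were higher on both shESS2 arrays, and the DU145 pair was further apart.

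TM7SF2 and SC5D went opposite ways in the lines. TM7SF2, a sterol C14 reductase, had signals of 666 and 535 in PC3 (log2 ratio -0.46) and 968 and 2040 in DU145 (1.04). SC5D, the sterol C5 desaturase, had 79.7 and 78.4 in PC3 (-0.16) and 76.2 and 160 in DU145 (1.03). Its PC3 ratio came mostly from the scaling and was -0.075 with the authors' scaled values. FDFT1, the squalene synthase, had 1540 and 1590 in PC3 (-0.09, as the scaling exceeds the difference in signal) and 4150 and 6970 in DU145 (0.71). In PC3 these 3 were the only genes of the group with a ratio under 0 in the scaling used.

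SQLE, the squalene epoxidase, gave log2 ratios of 0.38 in PC3 and 0.87 in DU145, and CYP51A1, the lanosterol demethylase, gave 0.34 and 0.59. NSDHL, which acts with MSMO1 on the C4 methyl groups, gave 0.13 and 0.67. EBP, the sterol isomerase, gave 0.01 and 0.63. HSD17B7, the keto reductase of the same demethylation, gave 0.05 and 0.99 with its brightest probe, and its other 3 probes gave 0.08 to 0.85 in PC3 and 0.86 to 1.80 in DU145. The PC3 values of EBP and of the brightest HSD17B7 probe turned negative with median scaling. HSD17B7 has a closely similar pseudogene, so its signal may be shared.

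Fatty acid synthesis was not higher as a group in PC3. Of its 7 genes 6 had a log2 ratio under 0 in PC3, beside 55.7% of all genes, the median was -0.16 (-0.26 to -0.07 under the other settings), and none was past 1.5-fold in either direction. In DU145 all 7 were above 0, beside 47.2% of all genes, the median was 0.29, and 3 of 7 were past 1.5-fold higher, beside 7.18%.

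FASN, the fatty acid synthase, had signals of 5430 and 4910 in PC3-shC and PC3-shESS2 cells (log2 ratio -0.29) and 4240 and 8250 in the DU145 pair (0.92). FADS2, which desaturates polyunsaturated fatty acids, had 8560 and 8470, then 8770 and 17200 (-0.16 and 0.93). ACLY, which releases cytosolic acetyl-CoA from citrate, had 935 and 1170, then 1800 and 2810 (0.18 and 0.60). These were the 3 genes past 1.5-fold in DU145. SCD, the stearoyl-CoA desaturase and a well-known target of SREBP-1 and LXR, had 1020 and 1010 in PC3 and 1220 and 1340 in DU145 (-0.16 and 0.10). FADS1, the partner desaturase of FADS2, gave -0.08 and 0.29, and ELOVL6, an elongase, gave -0.40 and 0.17. The PC3 value of FADS1 turned positive with quantile normalization and with the authors' scaled values. ACACA, the acetyl-CoA carboxylase, gave -0.44 and 0.28 with its brighter probe (5450, 4420, 4740 and 5900), but its other probe (133, 147, 530 and 364) gave 0.00 and -0.58. Its direction in DU145 thus depended on the probe, and in PC3 the other probe showed no difference.

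Of the 3 LXR targets ABCA1 alone was past 1.5-fold higher in PC3, beside 10.1% of all genes, and none was in DU145, beside 7.18%, and so few genes allow no reading of these counts. ABCA1, which exports cholesterol to apolipoprotein A-I, had signals of 263 and 437 in PC3 (log2 ratio 0.59, 1.51-fold) and 98.3 and 118 in DU145 (0.22). Its dimmer second probe gave 0.67 in PC3 and -0.34 in DU145, so its direction in DU145 was not settled. ABCG1, the partner exporter, was dim, at 27.0, 25.2, 24.8 and 21.0 (-0.24 and -0.28). MYLIP, an E3 ligase that degrades lipoprotein receptors, had 1280 and 976, then 1290 and 1200 (-0.53 and -0.14), and with median scaling it passed 1.5-fold lower in PC3. The medians of the 3 genes were -0.24 and -0.14, and with each probe on its own the PC3 median turned positive, to 0.18, so that its direction depended on the probes.

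Across the lines, 5 of the 34 genes (IDI1, INSIG1, MSMO1, MVK and STARD4) were higher by more than 1.5-fold in both, beside 1.44% of the 15478 genes compared in both. INSIG1 and STARD4 were so by more than 2-fold, beside 0.265%, although with normexp background correction the log2 ratio of STARD4 in DU145 was 0.96, just under 2-fold. In PC3 the log2 ratio of IDI1 was 0.56 with median scaling and that of MSMO1 0.56 with normexp background correction, just under 1.5-fold, and that of ABCA1 was 0.44 to 0.57 under these and quantile normalization. In PC3 alone ABCA1 and INSIG2 passed 1.5-fold, beside 7.54% of the genes compared in both, in DU145 alone 18 genes did, beside 4.75%, and 9 did in neither, beside 86.3%. The log2 ratio was higher in DU145 than in PC3 for 29 of the 34 genes, beside 52.3% of all genes, and the exceptions were INSIG1, INSIG2, STARD4, ABCA1 and ABCG1. With the other scalings it was so for 29 to 31 of the 34 and for 45.8 to 63.8% of all genes. INSIG1 and ABCG1 were no longer exceptions with median scaling or with quantile normalization. The PC3 arrays shared 1 slide and the DU145 arrays another, so cell line and slide cannot be told apart.

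The lines were the only replicates. In limma, with all 4 arrays, a block for each line and thus 1 degree of freedom for the residual, 0 of 17126 genes (0%) passed an adjusted p of 0.05. At an unadjusted p of 0.05, 1047 genes passed, of which 488 (2.85% of those tested) were higher. Of the 34 genes 11 passed that limit, all higher: ACAT2, HMGCS1, MVK, MVD, IDI1, SQLE, LSS, MSMO1, INSIG1, SREBF2 and STARD4. With no filter on dim genes 6 of the 34 were higher at that limit, beside 2.56% of all 25121 genes. The mean log2 ratio was 1.59 ± 0.18 (SE) for INSIG1, with a limma p of 0.00103, and 1.72 ± 0.28 for STARD4, with a limma p of 0.00414. It was 0.93 ± 0.19 for MVK, 1.10 ± 0.25 for MSMO1 and 0.94 ± 0.23 for IDI1. These SEs are limma's moderated ones, which draw in part on the variance of all genes tested and are not the gene's own spread alone. The adjusted p in limma lay between 0.746 and 0.971 for the 34 genes, so no gene was called. Without the block 0 of the 34 and 23 of all genes passed the unadjusted limit.

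The control cells of the lines also differed before any knockdown. On the scaled log2 scale IDI1 was 2.84 higher and INSIG1 2.52 higher in DU145-shC than in PC3-shC cells, the largest such differences of the 34 genes. NSDHL, INSIG2 and ABCA1 were lower in DU145-shC cells by log2 differences of -1.29, -1.13 and -1.11. The second probes of INSIG2 and ABCA1 gave -0.19 and 0.56, so that for ABCA1 the direction depended on the probe. INSIG1 in PC3-shESS2 cells, at 1.56, lay under its level in DU145-shC cells, 2.48, and IDI1 likewise (1.07 and 3.25). With its brighter probe INSIG2 in PC3-shESS2 cells, at 2.94, lay above both DU145 arrays (0.23 and 0.30).

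Promoter windows of RefSeq genes on GRCh38.p14, 250 bases before to 50 after the start, were matched for 29 of the 34 genes and gave 39 windows. CCAAT, the box bound by NF-Y, a usual partner of the SREBPs, stood on either strand in 25 of the 39 (64.1%), beside 34.6% of all 35116 windows, and in at least 2 copies in 17 (43.6%), beside 10.75%. TCACNCCAC, a form of the sterol regulatory element, stood in 1 of the 39, that of SREBF2, beside 1.13% of all windows. GGGCGG, the Sp1 box, stood in 35 of the 39 (89.7%), beside 44.95%. Such matches are letters in a window and no evidence of binding. The 200 bases before the start are printed 5′ to 3′ on the strand of the gene for 4 of the 5 genes higher in both lines, for SREBF2, which holds the sterol element, and for INSIG2, which was higher in PC3 alone. Capitals mark CCAAT in either orientation and TCACNCCAC.
INSIG1: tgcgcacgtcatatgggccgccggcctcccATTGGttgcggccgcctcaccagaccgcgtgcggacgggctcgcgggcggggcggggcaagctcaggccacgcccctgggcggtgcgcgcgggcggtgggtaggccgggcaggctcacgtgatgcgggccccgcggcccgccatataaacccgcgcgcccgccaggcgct
STARD4: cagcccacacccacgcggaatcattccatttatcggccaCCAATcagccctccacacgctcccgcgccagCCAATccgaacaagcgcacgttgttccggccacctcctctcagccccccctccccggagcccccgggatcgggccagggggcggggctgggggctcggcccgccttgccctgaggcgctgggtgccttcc
MSMO1: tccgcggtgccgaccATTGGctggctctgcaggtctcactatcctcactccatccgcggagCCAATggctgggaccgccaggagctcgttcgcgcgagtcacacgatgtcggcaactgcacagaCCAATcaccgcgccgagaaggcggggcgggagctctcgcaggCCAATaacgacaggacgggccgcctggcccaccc
MVK: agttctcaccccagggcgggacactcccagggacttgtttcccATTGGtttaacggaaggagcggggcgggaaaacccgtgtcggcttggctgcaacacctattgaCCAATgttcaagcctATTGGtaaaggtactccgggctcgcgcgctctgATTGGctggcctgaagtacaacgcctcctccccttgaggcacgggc
SREBF2: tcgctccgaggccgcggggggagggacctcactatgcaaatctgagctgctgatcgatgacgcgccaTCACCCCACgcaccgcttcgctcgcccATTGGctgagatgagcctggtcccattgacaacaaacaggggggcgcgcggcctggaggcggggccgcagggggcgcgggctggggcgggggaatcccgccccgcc
INSIG2: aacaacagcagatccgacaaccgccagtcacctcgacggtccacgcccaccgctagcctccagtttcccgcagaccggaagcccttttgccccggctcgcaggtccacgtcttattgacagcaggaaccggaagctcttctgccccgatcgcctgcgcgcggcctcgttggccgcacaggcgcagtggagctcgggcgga
INSIG1 (chr7:155297678-155297877, plus strand) held 1 CCAAT box in this stretch, STARD4 (chr5:111512536-111512735, minus strand) 2, MSMO1 (chr4:165327469-165327668, plus strand) 4 and MVK (chr12:109573594-109573793, plus strand) 4. SREBF2 (chr22:41832905-41833104, plus strand) held 1 CCAAT box and the sterol element, which do not overlap. INSIG2 (chr2:118088271-118088470, plus strand, the first of its 2 windows) held neither.

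Other genes of these pathways were listed beside the 34, of which 48 of 51 could be compared. Their median log2 ratio was -0.05 in PC3 and 0.20 in DU145. By more than 1.5-fold 4 of the 48 were higher (ELOVL2, ELOVL4, ELOVL7 and DGAT2) and 7 lower (ACSL1, ACSL5, GPAM, ME1, SCARB1, SCD5 and TMEM97) in PC3, beside the 10.1 and 9.98% of all genes. The 4 became 2 with median scaling or normexp. In DU145 7 were higher and 1 lower (FNTA), beside 7.18 and 8.63%. Of the genes of SREBP processing and sterol transport, 13 of 14 had a ratio above 0 in DU145, beside 47.2% of all genes, and 6 of 14 in PC3, beside 44.3%. Of the other isoprenoid and sterol enzymes 3 of 7 were above 0 in each line. Of the fatty acid and glycerolipid enzymes 18 of 27 were above 0 in DU145 and 14 of 27 in PC3. ACSS2, which makes acetyl-CoA from acetate, was 2.15-fold higher in DU145 (737 and 1630) and not in PC3 (1740 and 1670, log2 ratio -0.20). The fatty acid elongases ELOVL2 and ELOVL7 were higher in PC3, with signals of 40.2 and 254 (5.73-fold) and of 64.7 and 163 (2.28-fold). In the DU145 pair they gave 451 and 327, and 317 and 297. ACSL1, which activates long-chain fatty acids, was 2.49-fold lower in PC3 (949 and 420) and gave 124 and 141 in DU145. Of the 48 genes, 2 were thus higher and 1 lower by more than 2-fold in PC3, beside 3.88 and 3.87% of all genes, and 1 was higher in DU145, beside 2.36%, so that these shares were near or under those of all genes.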

How the data were processed

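Per the labels, Cy3-labelled cRNA was made from 0.1 µg of total RNA. The files the authors deposited are the scanner's output per array, from Agilent Feature Extraction (12.1.0.3 for PC3 and 12.0.3.1 for DU145, per the file headers), in which the intensity of each spot is background-subtracted and not scaled between arrays. A table of scaled intensity values that the authors deposited equals the same signal times 1 constant per array and served as an alternative. For the arrays the methods name GeneSpring and gene set enrichment analysis, and no test of single genes.

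Log2 of the intensity was taken and the 75th percentile of the 60901 non-control spots was subtracted on each array. Probes were named through their accession in a RefSeq gene table, and 41 of the 42 probes had the same symbol in the older annotation of the DU145 files. For genes with several probes the brightest on average was taken. Genes entered a comparison within a line when well above background on 1 of its arrays, and a dim signal was raised to the lowest signal well above background (8.15 to 9.02). limma (version 3.58.1, R 4.3.3) took every gene measured well above background on 2 or more arrays and adjusted p by Benjamini-Hochberg over all of them. Tested on simulated data of 17126 genes with 200 changed, it recovered 76 of 108 changed by 1 on the log2 scale and 91 of 92 changed by 2, with 15 false calls. The simulated noise was modelled on that between spots, and each change was the same in both lines. These figures therefore do not tell how many changes of such size would be found in the real arrays, where the lines differ. Python 3.11.15, numpy 2.4.6, pandas 2.3.3 and matplotlib 3.10.9 were also used.

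The members, the lists and the tests were chosen with earlier results of these data known. Named genes are all 34 members, ESS2 and the other pathway genes past 2-fold in a line. Markers, exceptions and the other pathway genes past 1.5-fold only were named after their values were seen. Alternatives were median scaling, quantile normalization, normexp (offset 50), no filter or a filter on both arrays, plain dim signals, averaging or separating the probes of a gene, outlier spots kept, the authors' scaled values, a 2-fold limit and, for limma, no block. Protein sequences were not used here. Of the cell type markers, 1 is not reported here.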

Additional observations from a re-analysis of the deposited data

Results flagged for a closer look

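In 8 genes the ratio of shESS2 to shC went opposite ways in the lines, lower in PC3 and higher in DU145, by more than 2 SDs between spots, and kept these signs under every scaling tried. The same held for 1948 of the 15478 genes compared in both lines (12.6%). With quantile normalization or the authors' scaled values the PC3 ratios of FDFT1 (-0.0165 and -0.009) and FADS2 (-0.051 and -0.0665) lay within 2 SDs of 0, as did that of SC5D (-0.0754) with the authors' values and that of FDFT1 (-0.0356) with normexp background correction. The log2 ratio in DU145 minus that in PC3 was 0.94 for FDPS, 0.80 for FDFT1, 1.49 for TM7SF2 and 1.19 for SC5D of the sterol pathway. It was 0.72 for ACACA, 1.21 for FASN, 0.57 for ELOVL6 and 1.09 for FADS2 of fatty acid synthesis. The difference was not tested for any of them, since each line has 1 array per condition. The second probe of ACACA gave the opposite order.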

How the results depend on the processing

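Under the other scalings, background corrections, filters and gene values, 22 or 23 of the 34 genes were higher by more than 1.5-fold in DU145 and 5 to 8 in PC3, and with each probe on its own 27 and 10 of the 42 probes were. The shares of all genes higher by as much, 7.18% in DU145 and 10.1% in PC3, were computed for the main processing and not for these settings. Of the genes past 1.5-fold, 22 of the 23 and 4 of the 7 stayed so in every one of these settings (in PC3 MVK, INSIG1, INSIG2 and STARD4). With a 2-fold limit the counts were 11 in DU145 and 3 in PC3. Scaling to the median shifted the median of all genes in PC3 by -0.10, put 1 gene (MYLIP) past 1.5-fold lower in PC3 and gave a median of the 34 genes of -0.012. That PC3 median was 0.17 with quantile normalization, 0.15 with the mean of a gene's probes, 0.15 with each probe on its own and 0.18 with the authors' scaled values. At an unadjusted p of 0.05 limma gave 6 of the 34 genes with no filter on dim genes and 0 with no block for the line. No paired analysis beyond the line block was possible because each condition has 1 array, and for the same reason no array could be left out. The slide is the line, and limma was not run with plain dim signals. The cause of these shifts was not tested.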
